A study of Mus musculus with 12 samples.

Results

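The 2 genes described here, Usf1 and Usf2, were taken by their symbols from the 55487 genes in the deposited table of hippocampal RNA sequencing, and both were among the 18221 genes tested, for which the normalised count averaged 10 or more. The question was whether Usf2 is higher or lower, mouse by mouse, when Usf1 is lost, and where the WT mouse with the lowest Usf1 stands. Hippocampi came from 6 WT mice (4 females and 2 males) and 6 USF-1 KO mice (2 females and 4 males), all of the strain C57Bl/6JRccHsd and aged 3 to 4 months. The sexes are those of the sample labels, which differ from the numbers of each sex stated elsewhere by the study, and every value split or adjusted by sex below rests on the labels. The study bred both genotypes from USF-1 deficient heterozygotes, so the loss is not limited to the hippocampus or to 1 cell type. The design of the allele was not given in the sources used here, and the labels give no other allele or treatment for either group. The mice are named WT 1 to WT 6 and KO 1 to KO 6, in an order that pairs no mouse with another. The libraries held 21679622 to 32091173 reads on genes, and a normalised count is a gene's reads divided by the size factor of its library.

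USF-1 and USF-2 are transcription factors of the basic helix-loop-helix leucine zipper class. They bind the E-box CACGTG as homodimers or as heterodimers with each other, so that a cell lacking one still holds the other. Both are made in nearly all tissues, and they are known for the control of genes of glucose and lipid metabolism, of the stress response and, in neurons, of activity-dependent genes such as Bdnf.

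The genes share little exact sequence, which bears on whether reads of one could be counted for the other. In GRCm38, Usf1 (ENSMUSG00000026641) lies on the plus strand of chromosome 1 from 171411313 to 171419142 and Usf2 (ENSMUSG00000058239) on the minus strand of chromosome 7 from 30945248 to 30956803, with 10 and 11 annotated transcripts. The coding sequences of 930 bases in the Usf1 transcript used and 1038 bases in the Usf2 transcript used were identical at 628 of 920 aligned bases (68.3%). The longest exact run that any transcript of Usf1 shared with any of Usf2 was 22 bases. It is shown in capitals below within 120 bases of each transcript, all coding, from the part that encodes the DNA-binding basic region and the first helix. The stretches span exons 8 and 9 of Usf1 (chr1:171417498-171417726, plus strand) and exons 7 and 8 of Usf2 (chr7:30946974-30954777, minus strand), and the run itself lies in exon 9 and exon 8.
Usf1: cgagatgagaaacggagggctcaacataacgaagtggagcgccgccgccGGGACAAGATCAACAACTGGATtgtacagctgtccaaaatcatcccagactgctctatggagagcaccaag
Usf2: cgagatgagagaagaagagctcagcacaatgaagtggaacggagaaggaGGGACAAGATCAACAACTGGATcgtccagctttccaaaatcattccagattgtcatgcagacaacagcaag
The 2 stretches were identical at 92 of the 120 bases (76.7%). No read longer than the run can match transcripts of both genes without a mismatch.

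Usf1 was nearly lost in every KO mouse, and 1 WT mouse stood well below the others. Its normalised count was 1505 in WT 1, 1579 in WT 2, 1583 in WT 3, 1520 in WT 4, 842 in WT 5 and 1425 in WT 6. In the KO mice it was 141 in KO 1, 138 in KO 2, 117 in KO 3, 163 in KO 4, 148 in KO 5 and 138 in KO 6. The groups did not overlap, and the highest KO value lay far below WT 5. WT averaged 1409 ± 284 and KO 141 ± 15.0 (SD, n = 6 each), which is 9.98% of WT. Usf1 fell by 3.29 on the log2 scale, with an SE of 0.14, a 95% interval of -3.59 to -2.996 and a Benjamini-Hochberg adjusted p = 1.77e-08 in limma. An exact two-sided permutation test over all assignments of mice to the groups gave p = 0.0022, the smallest that 6 against 6 mice allow. In that comparison 164 of 18221 genes (0.9%) passed an adjusted p of 0.05. The KO mice kept 107 to 173 reads per library on Usf1, and as the table sums reads over a whole gene, the exons they fell on were not measured.

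WT 5, a male, held 55.3% of the mean Usf1 level of the other 5 WT mice (1522 ± 64.6, SD, n = 5) and 59.1% of that of WT 6, the other WT male. Its value rests on 793 reads. The labels place it in the WT group, where it was kept, and the Usf1 and Usf2 results that rest on it most are also given without it. Without WT 5 the Usf1 difference was -3.43 (SE 0.07, adjusted p = 8.18e-12).

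**Figure D1:**
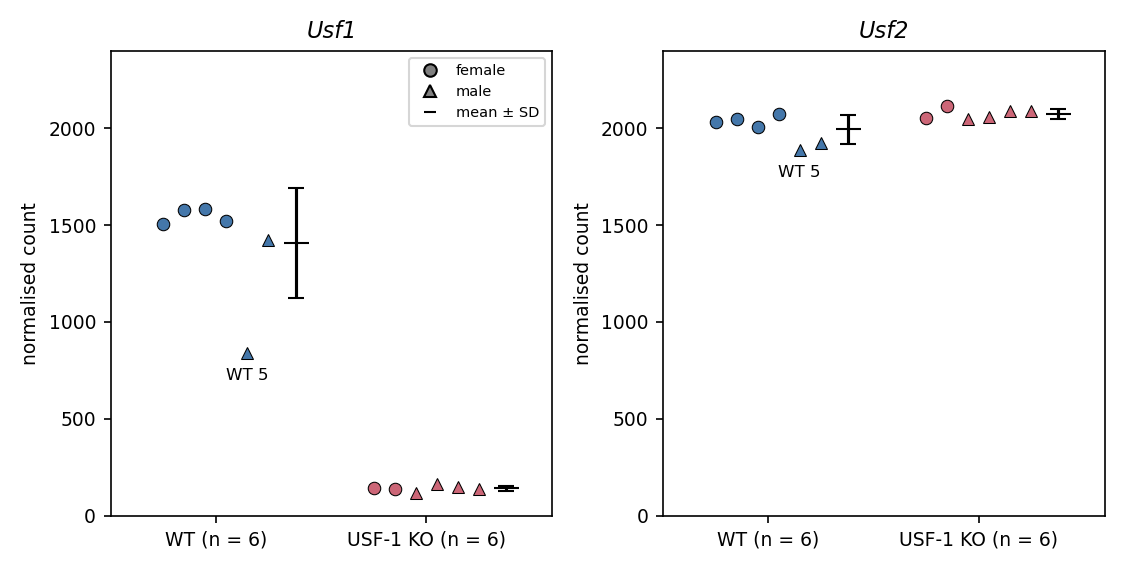
Normalised counts of Usf1 (left) and Usf2 (right) on the same axis from 0, with 1 point per mouse (circles female, triangles male) and the mean ± SD beside each group (n = 6). Usf1 was 842 in WT 5 and at most 163 in the KO mice, while Usf2 stayed between 1886 and 2116 in all 12 mice.

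The difference in Usf2 between the genotypes was small, did not pass the test across all genes, and left the groups overlapping. Its normalised count was 2031 in WT 1, 2049 in WT 2, 2005 in WT 3, 2074 in WT 4, 1886 in WT 5 and 1924 in WT 6. In the KO mice it was 2053 in KO 1, 2116 in KO 2, 2047 in KO 3, 2056 in KO 4, 2087 in KO 5 and 2087 in KO 6. The 6 KO mice lay above the WT mean, 3 of them lay above every WT mouse, and 4 WT mice lay below every KO mouse. The low end of the range was held by the WT males and the high end by KO 2, a female.

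Usf2 averaged 1995 ± 73.9 in WT and 2075 ± 26.7 in KO (SD, n = 6 each), a level 4.00% higher. The log2 fold change was 0.06 with an SE of 0.03 and a 95% interval of -0.01 to 0.13, which spans a change from -0.809% to 9.14%. In limma the unadjusted p was 0.0967 and the adjusted p = 0.468. The exact permutation test of the normalised counts, run for Usf2 alone and with no account of sex, gave a two-sided p = 0.0216, and p = 0.0433 without WT 5. The mean was thus higher in KO, but the 95% interval included 0 and the difference did not pass the test across genes. All 28 other settings gave a value above 0, from 0.03 to 0.12, and none passed its threshold (lowest adjusted p = 0.308). The settings reuse the same mice or part of them, so their shared sign is no further support for a direction. Before adjustment, 2 of the 29 settings fell under 0.05, namely that with sex as a covariate (0.08, limma unadjusted p = 0.0334, adjusted p = 0.371) and that of males only.

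**Figure D2:**
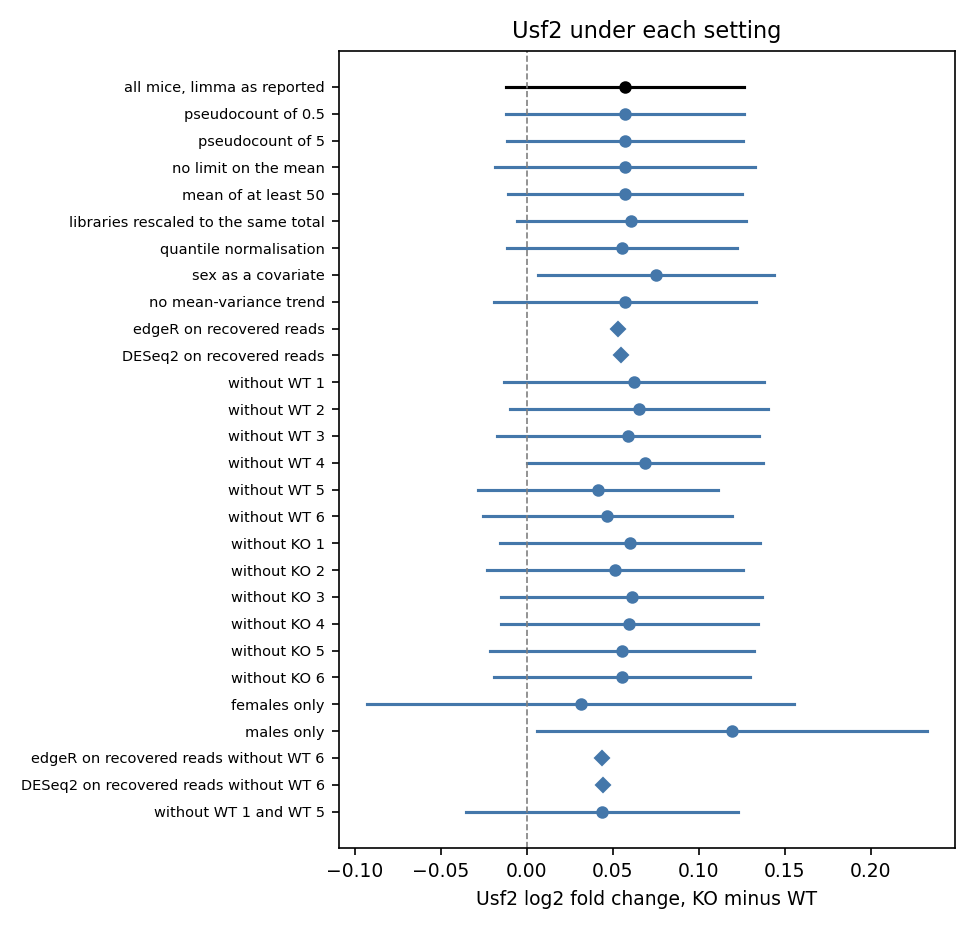
The log2 fold change of Usf2, KO minus WT, under each way of fitting, as points with 95% intervals for limma and as diamonds for edgeR and DESeq2, which have no interval drawn. The black point is the fit of all mice at 0.06, the lowest value is 0.03 (females only) and the highest 0.12 (males only).

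The sexes were not evenly spread over the genotypes, so Usf2 was also compared within each. In females it averaged 2040 ± 29.2 for the 4 WT and 2085 ± 44.6 for the 2 KO mice (SD), and the values overlapped. In males it averaged 1905 ± 26.7 for the 2 WT and 2069 ± 20.6 for the 4 KO mice (SD), and they did not overlap. The log2 fold change was 0.03 in females (limma adjusted p = 0.998) and 0.12 in males, where the 95% interval was 0.01 to 0.23 before adjustment (limma adjusted p = 0.441). The difference between these was 0.09 with a 95% interval of -0.04 to 0.22 (limma interaction term, adjusted p = 0.9999), so it was not resolved. WT 5 is 1 of the 2 WT males, and the KO males averaged 7.55% above the other, WT 6.

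The WT mouse with the least Usf1, at 55.3% of the other WT mice, did not have more Usf2. Usf2 in WT 5 was the lowest of all 12 mice. It stood at 98.0% of WT 6 and at 93.5% of what the remaining WT mice averaged (2016 ± 57.5, SD, n = 5). WT 5 also had the highest summed choroid plexus markers, described below (162263, against 57384 in WT 1, the next highest). The part of its Usf1 level and of its tissue content in its Usf2 was not tested. With WT 5 left out, the genotype difference in Usf2 was 0.04 (SE 0.03, adjusted p = 0.653). That was the lowest value on leaving out any 1 mouse, and the highest, without WT 4, was 0.07.

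Across the 6 WT mice, Usf2 on the log2 scale went with Usf1 in the same direction, but the relation rested on the males. Pearson's r was 0.79 (exact permutation p over the 720 pairings 0.025, adjusted over the 2 genotypes 0.05) and Spearman's rho was 0.60 (exact p = 0.242, adjusted 0.483). Without WT 5 and WT 6, the mice farthest from the median of Usf1, r was -0.43 over the 4 that remained, which are all female. Across the 6 KO mice r was 0.13 (exact permutation p = 0.851, adjusted 0.851) and rho 0.03 (exact p = 1), and without KO 3 and KO 4 r was -0.25. Among the KO mice the SD of Usf2 was 1.29% of its mean, where counting reads alone gives 2.23%. For Usf1 it was 10.6%, where counting gives 8.59%. The KO mice could therefore hardly show a relation in either direction. Within neither genotype was Usf2 shown to be higher where Usf1 was lower.

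**Figure D3:**
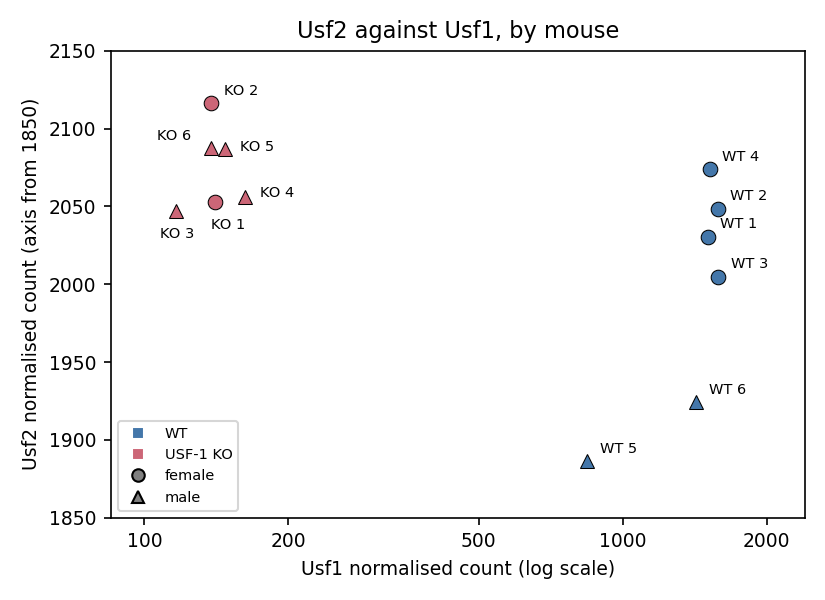
The Usf2 normalised count (vertical axis, which does not start at 0) against that of Usf1 (horizontal axis, log scale) in each of the 12 mice, coloured by genotype and shaped by sex. WT 5 lies at 842 for Usf1 and 1886 for Usf2, the lowest Usf2 value, while the KO mice lie between 2047 and 2116.

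Set per length of exon, Usf2 was the more abundant of the pair already in WT. With 2806 bases of exon for Usf1 and 2651 for Usf2, the level in WT was 502 ± 101 normalised counts per kb for Usf1 and 752 ± 27.9 for Usf2 (SD, n = 6). The log2 ratio of Usf2 to Usf1 per kb was 0.51 in WT 1, 0.46 in WT 2, 0.42 in WT 3, 0.53 in WT 4, 1.25 in WT 5 and 0.52 in WT 6. It was above 0 in every WT mouse, with a mean of 0.61 ± 0.31 (SD, n = 6), and an exact test over the 64 sign changes gave a two-sided p = 0.0312, the smallest it can give. With the length of the longest transcript in place of all exons the mean was 0.37, again above 0 in 6 of 6 mice. In KO the ratio was 3.97 ± 0.16 (SD, n = 6) on the same scale, or 15.7 on the linear scale as a geometric mean.

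The sum of both paralogues per kb fell short of WT in every KO mouse. WT 5 had 1012, the 5 remaining WT mice 1234 to 1336 and the KO mice 814 to 847, so the groups did not overlap. The mean was 1255 ± 124 in WT and 833 ± 11.8 in KO (SD, n = 6), or 66.4% of WT and 63.9% of WT without WT 5. Usf1 was 39.6% of the sum in WT on average, 29.7% in WT 5 and 6.01% in KO. The KO mice had 452 normalised counts per kb less of Usf1 and 30.1 more of Usf2, so the higher Usf2 mean amounted to 6.65% of the loss, or 4.44% without WT 5. Taken at the upper end of its 95% interval, the Usf2 difference would amount to 15.2% of the loss. A Usf2 level 60.1% above WT would have been needed to equal it. These are levels of RNA, and protein was not measured.

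**Figure D4:**
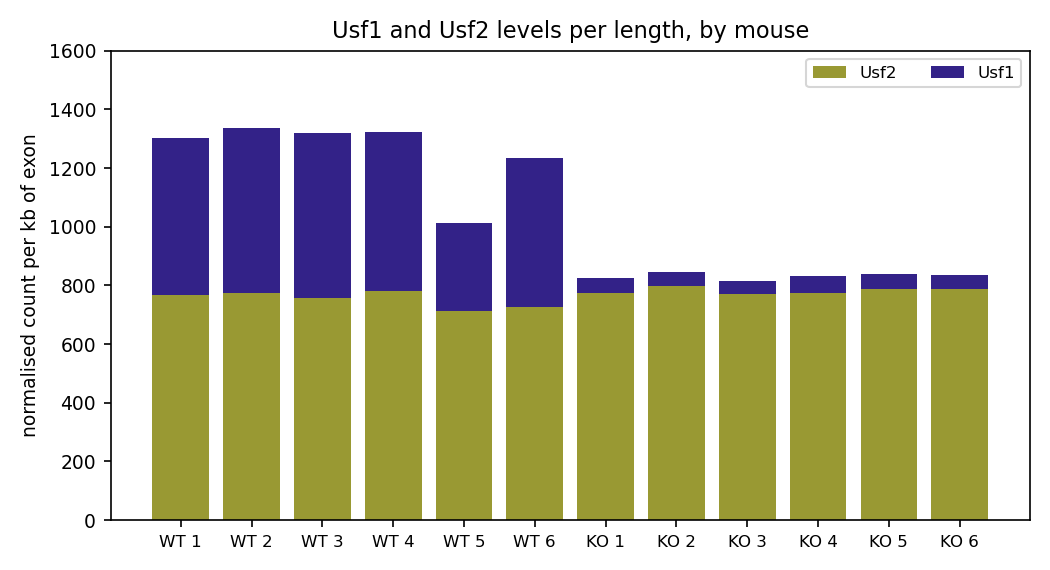
Stacked bars of Usf2 (below) and Usf1 (above) in normalised counts per kb of exon for each mouse, on an axis from 0. WT 5 reached 1012, the remaining WT mice 1234 to 1336 and the KO mice 814 to 847, and the Usf2 part was nearly level throughout.

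Usf2 was among the steadier genes of the tissue. Its WT level per kb was higher than that of 91.1% of the tested genes with a length, and that of Usf1 higher than 85.9%. Within genotypes the SD of Usf2 was 0.04 on the log2 scale, and 3.17% of the 1358 genes of like mean (from 0.8 times its mean up to its mean divided by 0.8) had a smaller one (their median was 0.08). The absolute log2 fold change of Usf2, 0.06, was exceeded by 11436 genes and lay below the median over all tested genes of 0.08. That of Usf1 was exceeded by 4 genes.

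The cell content of the dissections varied, and as the samples are bulk tissue, fewer cells of a type and less RNA per cell cannot be told apart. The 10 markers of hippocampal excitatory neurons were all tested, with summed levels of 128765 to 165327 in WT and 123154 to 184960 in KO. All 10 had a fold change above 0, with a median log2 fold change of 0.16, against 0.06 for Usf2, and none was called. For the 6 choroid plexus markers the sum was 162263 in WT 5 and 57384 in WT 1, whereas no other mouse exceeded 2642. The 6 oligodendrocyte markers summed to 83576 to 180879 in WT and 71972 to 110270 in KO, and all 6 had an unadjusted p under 0.05 with lower values in KO, though none passed the adjusted test. That level was reached by 13.5% of all tested genes, and by 7.60% with lower values in KO. WT 4 and KO 2 had the lowest oligodendrocyte sums and the highest Usf2 of their groups, a match picked after the values were seen. WT 1 and KO 6, with the highest oligodendrocyte sums of their groups, also had Usf2 above their group means (2031 against 1995, and 2087 against 2075). WT 6, with the next highest sum in WT (175278), had Usf2 below the WT mean (1924). These mice too were picked after the values were seen. The part of these differences in the Usf2 values was not tested, but without WT 1 and WT 5 the log2 fold change of Usf2 was 0.04 (adjusted p = 0.784) and that of Usf1 -3.44 (adjusted p = 2.14e-10). The other 4 marker lists (inhibitory neurons, astrocytes, endothelium, and thalamus and striatum) overlapped between the genotypes, with no gene called, and so did microglia (6922 to 9560 in WT, 6438 to 7341 in KO), of which 5 of 6 genes had an unadjusted p under 0.05.

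The annotation holds 1 gene that overlaps Usf1, and its counts moved with it. Tstd1 (chromosome 1, 171418872 to 171420352, plus strand), which encodes a thiosulfate sulfurtransferase, shares 200 exon bases with Usf1. Its normalised count was 16.7, 13.7, 20.3, 15.9, 6.37 and 17.1 in WT 1 to WT 6 and 0 to 3.27 in KO, so WT 5 was again the lowest WT mouse and all KO mice lay below it. Its mean of under 10 kept it out of the test. With no limit on the mean its log2 fold change was -3.25 (limma, adjusted p = 0.0015). As the genes lie on the same strand and overlap, their reads in the shared bases cannot be told apart. The nearest tested genes on either side were Arhgap30, with a log2 fold change of 0.03 (adjusted p = 0.937), and F11r, the junctional adhesion molecule JAM-A. F11r was 111 to 306 in WT, highest in WT 5, and 88.6 to 118 in KO, with a log2 fold change of -0.82 (adjusted p = 0.0664). Without WT 1 and WT 5, the mice high in choroid plexus markers, it was -0.55 (adjusted p = 0.122), while DESeq2 called it over all mice (-0.89, adjusted p = 0.0016), as did limma without WT 4, WT 5 or WT 6.

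Around Usf2 no gene was called. The 17 other tested genes that start within 250 kb of it had log2 fold changes of -0.66 to 0.16, with a median near 0. Among them 1 had an unadjusted p under 0.05, against 13.5% of all tested genes. That gene, named here after its values were seen, was Mag, which encodes a myelin protein and is among the oligodendrocyte markers (adjusted p = 0.115). Gm44662 and Gm17077, which overlap Usf2 on the opposite strand by 74 and 167 exon bases, had at most 9 and 6 reads in a library. How reads in the shared bases were assigned is not known. The pseudogene Usf2-ps1, 18101 bases away, has a transcript of 311 bases, of which an unbroken run of 218 is identical to Usf2, so its counts are uncertain. They were 91.9 ± 9.99 in WT and 88.4 ± 15.0 in KO (SD, n = 6), with a log2 fold change of -0.07 (adjusted p = 0.858). On the other side Gm4673, an antisense transcript 106 bases away, had a log2 fold change of -0.24 (adjusted p = 0.535).

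The third gene of the family name, Usf3, encodes a larger basic helix-loop-helix protein. Its normalised count was 2088 ± 151 in WT and 2198 ± 179 in KO (SD, n = 6), with a log2 fold change of 0.07, a 95% interval of -0.05 to 0.20 and adjusted p = 0.636.

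Neither gene's closest companions in pattern included the other. Over all 12 mice and 12676 genes with a mean of at least 100, the genes most like Usf1 by Pearson's r were Ogdhl (0.985), Dpp7 (0.974), Copa (0.971), Zfp946 (0.968) and Gaa (0.962), all of them lower in every KO mouse than in any WT mouse. These values mostly restate the gap between the genotypes. Copa starts at 172082529 on chromosome 1, near Usf1 (171411313 to 171419142), and the others lie on chromosomes 14, 2, 17 and 11. The part of this position in the pattern of Copa was not tested. WT 5 was not low in all of these genes. Dpp7, which encodes a lysosomal dipeptidyl peptidase, was 662 in WT 5, above its WT mean of 596 and far from the KO mean of 53.4. Ogdhl, which encodes an oxoglutarate dehydrogenase-like enzyme, was 2531 in WT 5 and at least 2774 in its 5 group mates, against 1860 to 2047 in KO.

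The genes most like Usf2 over the 12 mice were Gm7353 (0.936), Slc4a4 (0.935), Ets2 (0.904), Tef (0.904) and Tent4a (0.883), and none was called between the genotypes, though Ets2 was with sex as a covariate (0.26, limma adjusted p = 0.0241), where 0.538% of all genes were called. By the deviations of each mouse from its genotype mean they were Slc4a4 (0.940), Gm7353 (0.921), Aldh18a1 (0.917), Paqr8 (0.914) and Cad (0.913). Slc4a4, a sodium bicarbonate cotransporter of astrocytes, and Gm7353 stood in both lists. Slc4a4 was 3620 in WT 5 and 3677 in WT 6, and 4192 to 4678 in the other 10 mice, so the WT males were low in it as in Usf2. The r between Usf1 and Usf2 was -0.52 over all mice and 0.70 over the deviations. The points share libraries and size factors, and the values are descriptions.

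Of the proteins known to bind or modify the USF factors, 24 of 26 listed genes were tested and none was called, against 0.9% of all genes. The kinase subunit Prkaca was 4384 ± 122 in WT and 4685 ± 98.3 in KO (log2 fold change 0.10, adjusted p = 0.168), the general factor Gtf2i differed by 0.03 (adjusted p = 0.790) and the methyltransferase Setd7 by -0.02 (adjusted p = 0.913). An unadjusted p under 0.05 was found for 3 members with higher and 1 with lower values in KO (4 of 24, against 13.5% of all tested genes, 5.92% higher and 7.60% lower). The latter, named after its values were seen, was the acetyltransferase gene Kat2b (580 ± 121 in WT, 426 ± 41.1 in KO, log2 fold change -0.42, adjusted p = 0.120). It was called without WT 4 (-0.50, adjusted p = 0.0235), where 2.83% of all genes were. DESeq2 called Kat2b (-0.45, adjusted p = 0.0177) and Prkaca (0.09, adjusted p = 0.0246), beside 3.38% of all genes. The median log2 fold change of the list was 0.03, against 0.00 over all tested genes.

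Of 30 genes described as USF targets in the literature, 19 were tested, 2 were lower in KO and none was higher, beside 0.741% of all tested genes lower and 0.159% higher. The list was chosen with earlier results of these data known, so the shares are no test of the targets as a set. Igf2r, the receptor of mannose 6-phosphate and insulin-like growth factor 2, was 1281, 1254, 1305, 1364, 1531 and 1208 in WT 1 to WT 6 and 858, 793, 908, 940, 913 and 931 in KO 1 to KO 6. It fell by 0.57 on the log2 scale (SE 0.06, adjusted p = 3.11e-04), and the low-Usf1 mouse WT 5 had the highest value of all. Hmox1, which encodes the haem-degrading enzyme haem oxygenase 1, was 105 to 157 in WT (122 in WT 5) and 68.0 to 91.6 in KO. It fell by 0.65 on the log2 scale (SE 0.11, adjusted p = 0.0151), and without WT 1 and WT 5 its log2 fold change was -0.62 (adjusted p = 0.0799). Without WT 5 alone it was -0.67 for Hmox1 (adjusted p = 0.0242) and -0.53 for Igf2r (adjusted p = 2.61e-04). For neither gene did the groups overlap, but both are described because they were called in these same mice, so this adds no support.

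The 3 most abundant targets were not called. The fatty acid synthase gene Fasn differed by 0.05 (adjusted p = 0.637), the GABA-B receptor subunit gene Gabbr1 by 0.02 (adjusted p = 0.853, with the sign turned under quantile normalisation) and the amyloid precursor gene App by -0.02 (adjusted p = 0.903). The median of the list was -0.02. The 11 untested members had means under 10.

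Among other factors that bind E-boxes or heterodimerise with such factors, 25 of 26 were tested and none was called, against 0.9% of all genes. The most abundant was Srebf2, the regulator of cholesterol synthesis, at 5863 ± 279 in WT and 6341 ± 196 in KO (log2 fold change 0.11, adjusted p = 0.192). The clock-linked repressor Bhlhe40 differed by -0.06 (adjusted p = 0.824), with the sign turned when sex was a covariate, and Clock by -0.05 (adjusted p = 0.735). The median of the list was 0.02. In limma 1 member with higher and 2 with lower values in KO had an unadjusted p under 0.05, against 5.92% and 7.60% of all tested genes. Without WT 4 the lysosomal regulator Tfeb, named after its values were seen, was called (-0.32, adjusted p = 0.0434), where 2.83% of all genes were. Over all mice its log2 fold change was -0.25 (adjusted p = 0.257).

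**Figure D5:**
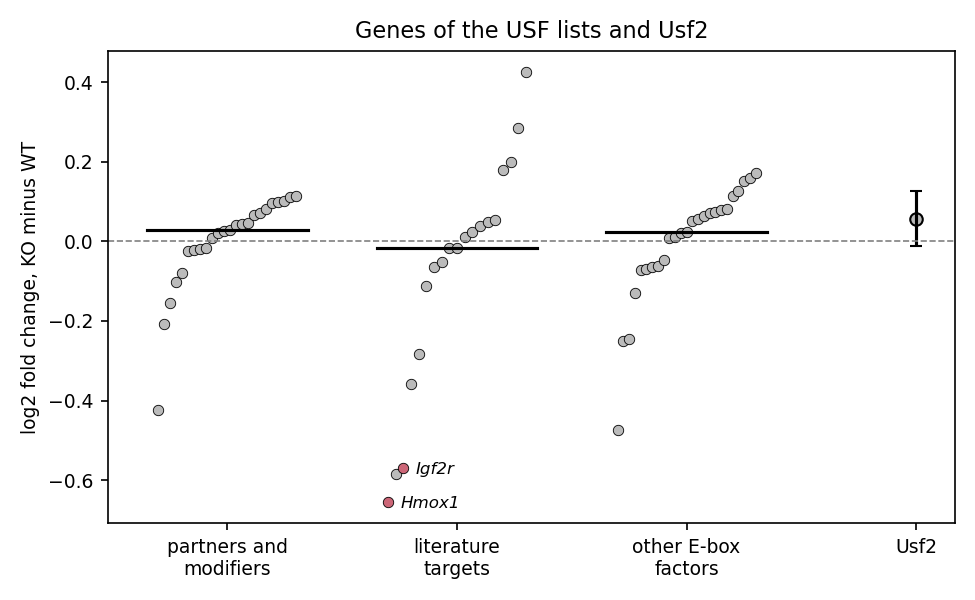
The log2 fold change, KO minus WT, of each tested member of the 3 lists (24 partners and modifiers, 19 literature targets, 25 other E-box factors), sorted within each list, with black bars at the list medians and Usf2 with its 95% interval at the right. The 2 called genes, Igf2r and Hmox1, are coloured and both lie below 0.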

How the data were processed

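RNA from whole hippocampi was made into libraries with the NEBNext Ultra II kit, and the submitters' processing notes name STAR 2.5.0a, edgeR 3.22.2 and the genome build mm10, while the methods of the study name DESeq2. The annotation, the counting program and the use of strand were not given in the sources used here. The authors deposited normalised counts, a signal of reads divided by a library size factor, per gene and mouse. All values were whole multiples of 1 step per library (tolerance 1e-06), so the reads were recovered by division for 100% of values, and edgeR called 151 and DESeq2 616 genes on them. The step of WT 6 was so close to 1 (1.01) that its recovery was not relied on alone, and both fits were also made without WT 6. Gene coordinates, exon lengths and sequences came from GENCODE M21 (GRCm38), which matched 55141 of the 55487 identifiers, 54821 of them at the same coordinates. No closest pair of libraries agreed within counting noise (chi-square per degree of freedom 4.54 or more), so the 12 mice counted as 12 replicates.

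Values were tested as log2(normalised count + 1) with limma 3.58.1 (trended variance) in R 4.3.3, on genes with a mean of at least 10, p-values adjusted by Benjamini-Hochberg, threshold 0.05. Fold changes are therefore on the log2(value + 1) scale. edgeR 4.0.16 and DESeq2 1.42.0 were alternatives. Other tests of single values were exact permutation tests, two-sided, enumerated in Python 3.11.15, with scipy 1.17.1 used for that of Usf2 without WT 5. Mice were grouped by their labels, and each p-value measures the spread between mice. The members and gene lists were chosen with earlier results of these data known. Named genes were the members, overlapping and nearest tested genes, Usf3, the 5 genes most like each member, called list genes and the 3 most abundant uncalled genes of each list. The libraries held at least 107 reads on Usf1 and 1695 on Usf2. At the mean reads of a group, counting alone gives a CV of 2.18% for Usf2 in WT, 2.23% for Usf2 in KO and 8.59% for Usf1 in KO.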

Additional observations from a re-analysis of the deposited data

Results flagged for a closer look

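In 13 of 80 groups of 6 mice examined, 1 mouse stood apart from the other 5 by Dixon's criterion, where chance gives about 1 in 20 (4 groups). WT 5 was that mouse 6 times. It was low in Usf1 (842, against 1425 to 1583 in the other WT mice), in the summed level of Usf1 and Usf2 (1012 per kb, against 1234 to 1336), in Copa (5310, against 5596 to 5757) and in Zfp946 (264, against 289 to 304). It was high in the log2 ratio of Usf2 to Usf1 per kb (1.25, against 0.42 to 0.53) and in the summed choroid plexus markers (162263, against 762 to 57384). The sum and the ratio contain Usf1 and repeat its value. Copa and Zfp946 were examined because their pattern over these same mice was close to that of Usf1. Ets2 and Tef, named below, were examined for their likeness to Usf2. The groups are thus not independent, and the 13 cannot be read as an excess over chance. Usf2 did not set WT 5 apart by Dixon's criterion.

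Among the KO mice, KO 2 stood apart in Bhlhe40 (3979, against 2509 to 3028), Ets2 (2233, against 1946 to 2006) and Tef (10481, against 9310 to 9590), and it had the highest Usf2 of the 12 mice. KO 3 stood apart in Tstd1 (3.27, against 0 to 1.21), on a few reads. KO 4 was high in Srebf2 (6716, against 6179 to 6345), KO 5 was low in Tfeb (166) and KO 1 was high in the thalamus and striatum markers (4238, against 1959 to 2448). No gene passed the adjusted test of the genotype-by-sex interaction in limma, where 628 of 18221 had an unadjusted p under 0.05.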

How the results depend on the processing

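Usf1 passed the threshold in all 28 alternatives (-3.46 to -2.96, and -3.43 to -3.24 on leaving out 1 mouse). Usf2 stayed above 0 and passed the threshold in none of its 28 (0.04 to 0.07 on leaving out 1 mouse). The interaction of Usf2 with sex kept its size in all 5. The number of genes called over all genes moved most. It was 98 with sex as a covariate, 109 without the variance trend, 616 with DESeq2, 343 at an adjusted p of 0.1, 4 in females only, 6 in males only and 64 to 515 on leaving out 1 mouse, the lowest without WT 1 and the highest without WT 4. In fits chosen after the data were seen it was 85 with edgeR and 550 with DESeq2 without WT 6, and 59 without WT 1 and WT 5. DESeq2 called 2 partners, also without WT 6, and leaving out 1 mouse gave 0 to 1. Of the targets, 1 was called without WT 1 and WT 5, where Hmox1 was not (-0.62, limma adjusted p = 0.0799, against -0.65 over all mice). That fit has fewer mice and also lacks those high in choroid plexus markers, and the part of each cannot be told apart. DESeq2 called Tac1 in addition. Of the E-box factors, 0 to 1 were called on leaving out 1 mouse. The correlation in WT passed the threshold when libraries were rescaled to the same total (r 0.72, adjusted p = 0.025) and was 0.67 to 0.93 on leaving out 1 mouse, lowest without WT 5. In KO it was -0.26 after rescaling and -0.55 to 0.52 on leaving out 1 mouse. The WT ratio was 0.49 to 0.65 on leaving out 1 mouse, where the exact test of 5 mice cannot pass the threshold, and the KO ratio was 3.73 with the longest transcript. Signs turned for genes near 0, namely Arhgap30 (-0.013 without WT 6 to 0.092 without WT 4, and without WT 6 -0.020 with edgeR and -0.019 with DESeq2), Usf2-ps1 (-0.13 without KO 2 to 0.016 without KO 4), Setd7 (-0.050 without KO 4 to 0.012 without WT 2), Gtf2i (-0.0037 under quantile normalisation), Gabbr1 (-0.033 under quantile normalisation, -0.011 without WT 1 and WT 5) and Bhlhe40 (0.030 with sex as a covariate). The causes were not tested. No paired analysis was possible because the mouse numbers follow the order of accessions and pair no WT with a KO mouse. With 6 mice a group, the 95% interval of the Usf2 difference ran from -0.809% to 9.14%, from 0.48% to 10.5% with sex as a covariate and from 0.41% to 17.5% in males only.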
